A study of Mus musculus with 37 samples.

Results

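Genes that serve the mouse oocyte, 10 of the 55401 genes in the deposited table, were followed through the oocyte-to-embryo transition in controls and after deletion of Bap1 in the oocyte. They were chosen by gene symbol. They comprise the zona pellucida genes Zp1, Zp2 and Zp3, the oocyte-secreted factors Gdf9, Bmp15 and Oosp1, and the oocyte transcription factors Figla, Nobox, Lhx8 and Sohlh1. BAP1 is a deubiquitinase that removes ubiquitin from histone H2A. The study asked how its loss alters the transcriptome and chromatin of mouse oocytes and early embryos.

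RNA-seq was available for 37 libraries, of which 26 were total RNA libraries of oocytes at full size (FGO), eggs at metaphase II (MII), and embryos at the late 1-cell (L1C), early 2-cell (E2C) and late 2-cell (L2C) stages. Control females were Bap1flox/flox. Knockout females carried Gdf9-iCre, Bap1flox/flox, so Bap1 was deleted by a recombinase driven by the promoter of Gdf9, itself one of the genes followed here. There were 2 control and 3 knockout libraries at every one of these stages except E2C, which had 3 of either genotype. The early embryos came from eggs of either genotype and sperm of the B6 strain and were cultured in KSOM, so a knockout embryo came from an egg with Bap1 deleted and a paternal genome from B6. The remaining 11 libraries were poly(A) libraries of epiblast, visceral endoderm and extraembryonic ectoderm at embryonic day 6.5, from the same crosses with PWK sperm. The labels give no age of the females and do not say whether libraries of a group came from separate animals, so the p-values measure the spread between these libraries, which may be technical.

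The zona pellucida is the glycoprotein coat that the growing oocyte secretes. ZP2 and ZP3 build its filaments, ZP1 cross-links them, and ZP2 is cleaved after fertilization so that further sperm do not bind. GDF9 and BMP15 are related ligands of the TGF-beta family that signal to the surrounding granulosa cells, and OOSP1 is an oocyte-secreted protein. FIGLA, a basic helix-loop-helix factor that binds E-boxes, activates the zona genes. NOBOX and LHX8 are homeodomain factors needed for early follicle growth, and SOHLH1, another basic helix-loop-helix factor, acts in primordial and primary follicles. The grown oocyte stops transcribing, and its stored transcripts are removed in waves during maturation and after fertilization, while the embryonic genome is activated at the 2-cell stage.

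Promoters are shown because FIGLA, itself among these genes, binds E-boxes (CANNTG, which reads the same on both strands). RefSeq promoter entries (GRCm38.p6) matched 7 of the 10 genes. Zp1, Zp2 and Gdf9 had no entry and were not searched. In the 250 bases before the RefSeq start, 6 of the 7 held an E-box, as did 66.2% of all 32851 promoters of that length. The Zp3, Nobox and Bmp15 windows follow, 5′ to 3′ on the gene's strand, with E-boxes in capitals.
Zp3, chr5:135979855-135980104, plus strand: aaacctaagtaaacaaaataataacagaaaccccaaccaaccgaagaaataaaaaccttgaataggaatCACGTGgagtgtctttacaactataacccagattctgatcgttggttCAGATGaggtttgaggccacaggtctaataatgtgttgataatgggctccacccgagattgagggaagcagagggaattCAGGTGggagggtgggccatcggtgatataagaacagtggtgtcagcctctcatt
Nobox, chr6:43309555-43309804, minus strand: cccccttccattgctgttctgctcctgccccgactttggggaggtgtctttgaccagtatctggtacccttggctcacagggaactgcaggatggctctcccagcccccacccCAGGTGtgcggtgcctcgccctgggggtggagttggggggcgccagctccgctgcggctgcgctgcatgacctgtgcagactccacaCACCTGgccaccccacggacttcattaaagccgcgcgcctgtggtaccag
Bmp15, chrX:6320725-6320974, minus strand: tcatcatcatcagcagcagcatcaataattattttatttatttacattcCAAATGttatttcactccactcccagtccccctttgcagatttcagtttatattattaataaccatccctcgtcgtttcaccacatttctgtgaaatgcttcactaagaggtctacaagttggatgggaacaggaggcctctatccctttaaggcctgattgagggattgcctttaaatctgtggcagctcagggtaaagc
Zp3 held 3 E-boxes, 181, 134 and 55 bases before the start, Nobox held 2 and Bmp15 held 1. Words that NOBOX can bind were also searched on both strands. The word TAATTA stood 225 bases before the start of Bmp15 and is present in 4.84% of promoters. The word TAGTTG stood 164 bases before the start of Zp3 (5.69% of promoters), and TAATTG was in none of the 7 windows (7.17%). The LHX8 word TGATTG was found in the Bmp15 window alone, against 12.7% of all promoters. None of these matches overlapped an E-box.

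The zona transcripts also shared very short 3′ untranslated regions in GENCODE M21 (GRCm38), of 34 bases in Zp1, 49 in Zp2 and 13 in Zp3, against a median of 697 over 21901 genes. Those of Gdf9, Oosp1, Figla, Nobox and Lhx8 measured 360, 230, 120, 281 and 637 bases, and that of Bmp15 measured 1523 bases. The last 30 bases of the zona transcripts are shown with the polyadenylation words AATAAA or ATTAAA in capitals, which 60.2% of genes carry in their last 30 bases.
Zp1: actcAATAAAccattgtttgaaaactcctg
Zp2: gactgcagttaaactcttgtcttacatgtt
Zp3: tatcccttccgcAATAAAagaagaaactca
Zp1 and Zp3 carried AATAAA there, and Zp2 carried neither word.

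The genes lie at chr19:10914287-10920632 (Zp1, minus strand), chr7:120126772-120145291 (Zp2, minus), chr5:135980099-135988624 (Zp3, plus), chr11:53431023-53437904 (Gdf9, plus), chrX:6314107-6320721 (Bmp15, minus) and chr19:11667460-11691150 (Oosp1, minus). Figla lies at chr6:86016171-86020996 (plus), Nobox at chr6:43303674-43309554 (minus), Lhx8 at chr3:154306294-154330659 (minus) and Sohlh1 at chr2:25842995-25847248 (minus). The RefSeq promoter window of Figla counted above, chr6:86016941-86017190, lies inside the gene at these coordinates. All are protein-coding. No exon of the 10 genes overlapped an exon of another annotated gene. None of their exonic words of 50 bases occurred in an annotated transcript of a gene outside the 10. Words shared among the 10 were not searched.

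The values are FPKM, fragments scaled to transcript length and library size, which correct for gene length and give each transcript as a share of its library. The number of reads behind a value is unknown. Bap1 checked the genotype labels and ranged from 16.3 to 29.9 FPKM in control and from 3.76 to 11.7 FPKM in knockout libraries. Its knockout mean was higher in later stages, at 4.41 FPKM in FGO, 6.83 FPKM in E2C and 10.5 FPKM in L2C. Control L2C averaged 22.7 FPKM. All 9 oocyte markers in the table reached 1 FPKM in every group except L2C controls, where 8 did. Of 15 granulosa or cumulus markers, 9 stayed below 1 FPKM in all 26 libraries, among them Fshr (at most 0.170 FPKM), Amh (0.320 FPKM) and Foxl2 (0.665 FPKM). The other 6 reached it, namely Nr5a2 (9.57 to 38.1 FPKM), Amhr2 (0 to 9.60 FPKM), Gja1 (0.0113 to 7.43 FPKM), Cyp19a1 (0.352 to 6.72 FPKM), Kitl (0.425 to 2.04 FPKM) and Tnfaip6 (0 to 1.60 FPKM). The single model Gm23935 took from 5.98% to 23.1% of the summed FPKM, most in L2C controls. Of the 10 genes, 9 reached 1 FPKM in at least 2 libraries and were tested. Sohlh1 did so in 1 of 26 libraries and was not tested.

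Levels in the grown oocyte spanned a wide range. In control FGO Gdf9 stood at 1087 ± 13.6 FPKM (SD, n = 2), rank 8 of all 55401 genes. Zp2 at 498 ± 71.2 FPKM (SD, n = 2), Oosp1 at 446 ± 38.6 FPKM (SD, n = 2), Zp3 at 431 ± 63.0 FPKM (SD, n = 2) and Bmp15 at 419 ± 37.0 FPKM (SD, n = 2) followed, each overlapping the next in this order. Below them, without overlap between neighbours, came Nobox at 166 ± 2.54 FPKM (SD, n = 2), Zp1 at 121 ± 15.5 FPKM (SD, n = 2), Lhx8 at 50.5 ± 2.49 FPKM (SD, n = 2) and Figla at 18.1 ± 2.30 FPKM (SD, n = 2). Sohlh1 was listed at 0 in all 3 knockout FGO libraries and at 0 and 0.0620 FPKM in the controls. By the late 2-cell stage the control order was Oosp1, Bmp15, Gdf9, Zp2, Zp3, Lhx8, Zp1, Nobox and Figla, and only Zp1 and Nobox overlapped. Bmp15 and Oosp1 had become the most abundant by L1C, where Gdf9 was the next.

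**Figure D1:**
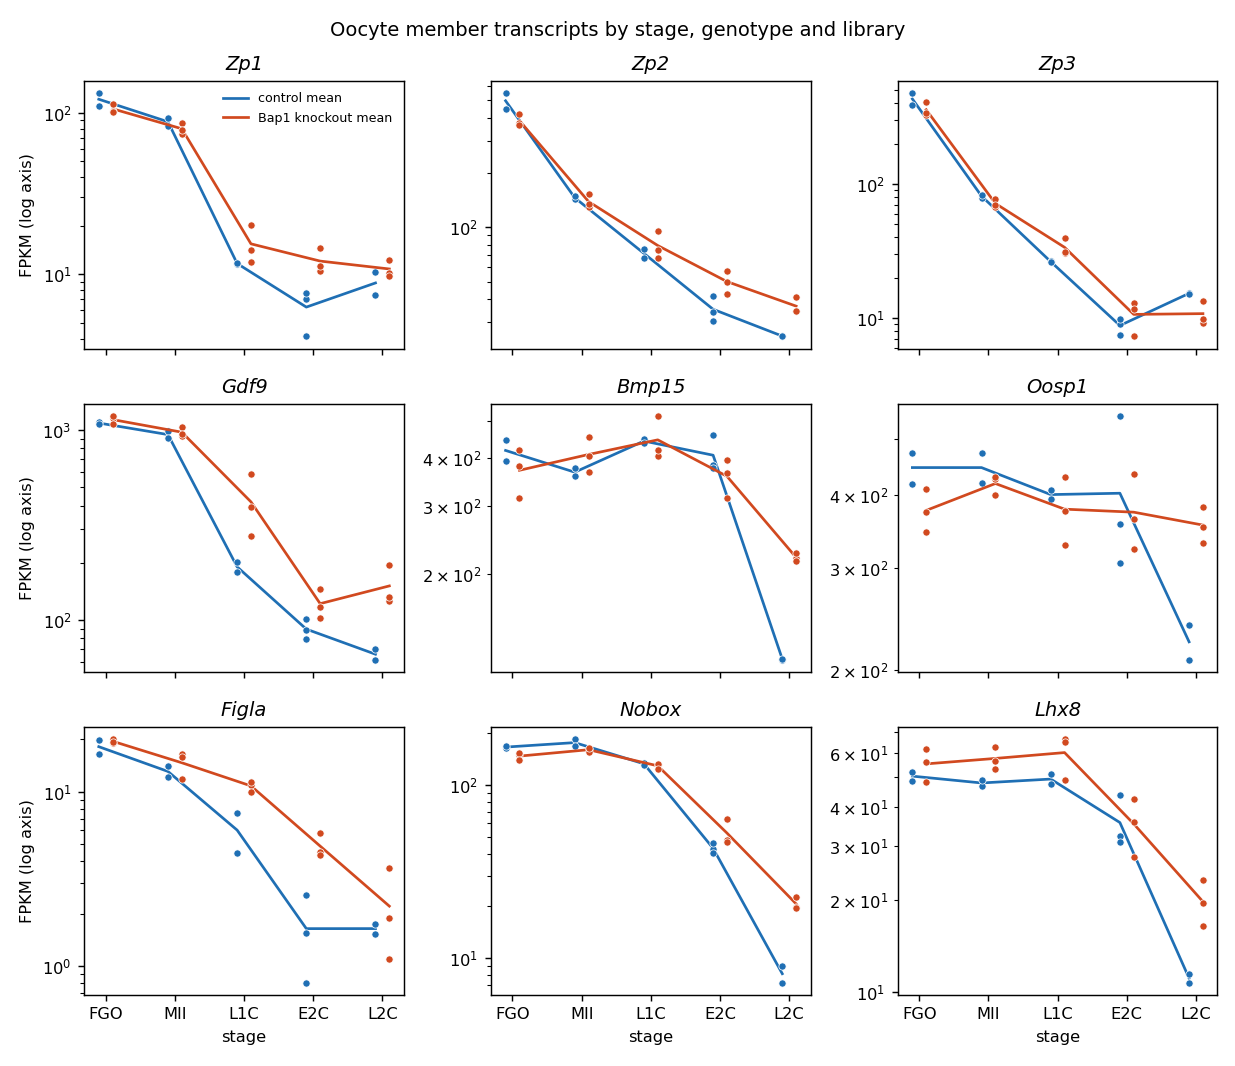
FPKM of the 9 tested genes (vertical axes, log scale) at the 5 stages (horizontal axes), one point per library, with lines through the group means of control (blue) and Bap1 knockout (red). Zp2 and Zp3 fell from oocyte to egg, and Zp1 and Gdf9 from egg to 1-cell embryo. Oosp1, Bmp15, Gdf9, Zp2 and Lhx8 stood above 10 FPKM at every stage.

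The transcripts left the embryo in different steps, tested with limma on log2(FPKM + 1), a scale that understates changes of low genes. Changes are log2 differences of group means with their SE, and a gene was called at a Benjamini-Hochberg adjusted p under 0.05 over the 15184 genes tested. In controls, all 9 genes were lower in L2C than in FGO, where 39.9% of all genes tested were called lower. From FGO to MII only Zp2 and Zp3 fell (2 of 9, against 1.21% of all genes). From MII to L1C 6 of 9 fell, all but Bmp15, Oosp1 and Lhx8 (all genes 7.73%), from L1C to E2C 7 of 9 (all genes 30.8%), and from E2C to L2C 5 of 9 (all genes 27.7%), while 1, Zp3, rose (all genes higher 33.3%). Consecutive steps share the libraries of the stage between them. In these pooled cells, fewer cells and less RNA per cell cannot be told apart, and a share of a library does not show a change of the library's total RNA.

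Calls between the genotypes began at the 1-cell stage. No gene of the 9 was called between knockout and control in FGO (limma, 0 called and 1 at an unadjusted p under 0.05, against 0.830% of all genes called higher and 5.12% lower) or in MII (limma, 0 called and 0 at an unadjusted p under 0.05, against 1.28% higher and 4.62% lower). In L1C 1 of 9 was higher in the knockout and 0 lower (all genes 2.23% higher and 5.51% lower), in E2C 4 of 9 and 0 lower (all genes 14.1% and 14.9%) and in L2C 6 of 9 (all genes 21.3%). A single gene, Zp3 in L2C, was lower (all genes lower 20.9%). Every knockout library lay above every control for 0, 1, 4, 5 and 6 of the 9 genes from FGO to L2C. Over all genes tested, the shares were 17.7%, 19.8%, 22.0%, 14.6% and 29.1%. Every knockout library lay below every control for 3, 2, 0, 0 and 1 of the 9, with shares of 24.1%, 21.9%, 20.9%, 15.1% and 27.7% over all genes. Such separation is therefore common with so few libraries. The median difference of the 9 genes was -0.18 in FGO, -0.07 in MII, 0.27 in L1C, 0.28 in E2C and 0.66 in L2C, beside medians over all genes from 0 to 0.03. Among genes averaging at least 5 FPKM, calls in these 2-cell stages leaned higher in the knockout. They were 1843 higher and 1019 lower in E2C and 2365 and 1500 in L2C, with medians of 0.10 and 0.13. Part of the upward lean was thus shared by other expressed genes. A fit of E2C alone called 2 of the 4 genes, and leaving out control replicate 1 of L1C left 0 called there. Over all genes that fit of E2C called 501 higher and 692 lower, against 2146 and 2261 in the fit of all stages. L2C had 6 higher and 0 lower genes with libraries scaled to a common sum (TPM), with no filter or fitted alone, and 5 higher and 0 lower after quantile normalization.

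**Figure D2:**
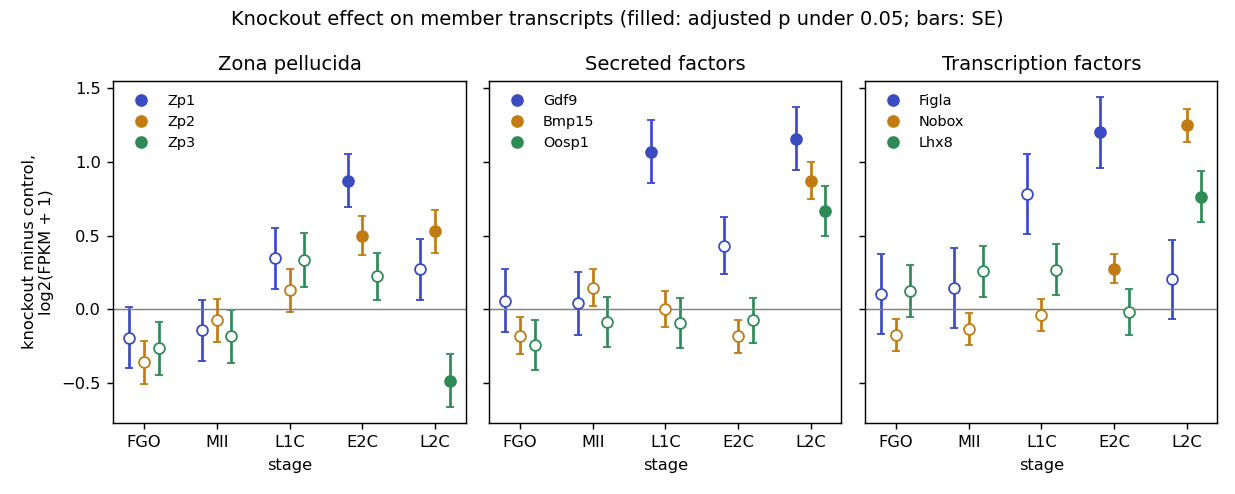
Knockout minus control difference on the log2(FPKM + 1) scale (vertical axis) by stage (horizontal axis) for zona, secreted-factor and transcription factor genes, with SE bars and filled points where the limma adjusted p was under 0.05. All FGO and MII points are open, and 6 of 9 genes are filled above 0 in L2C.

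Zp2 and Zp3 were called lower before the other genes. Zp3, which with ZP2 forms the zona filaments, measured 387 and 476 FPKM in the control FGO libraries and 79.2 and 83.4 FPKM in MII. Zp2 measured 448 and 548 and then 142 and 148 FPKM. Every egg library of either gene was below every oocyte library. The differences were -2.39 ± 0.20 (SE) for Zp3 and -1.76 ± 0.16 (SE) for Zp2 (limma adjusted p = 2.17e-07 and 8.85e-07), leaving 18.8% and 29.2% of the oocyte level. Zp1, the cross-linker, kept 72.5% in MII, a difference of -0.46 ± 0.22 (SE) that did not pass the test (limma adjusted p = 0.667). It then fell from 83.1 and 93.1 FPKM in MII to 11.5 and 11.8 FPKM in L1C, by -2.81 ± 0.22 (SE) (limma adjusted p = 5.04e-08), the most negative step of any of the 9 genes between consecutive control stages. Zp2 and Zp3 fell further in that step, by -1.01 ± 0.16 (SE) and -1.59 ± 0.20 (SE). At E2C the controls held 5.16% of the oocyte level of Zp1, 7.06% of Zp2 and 2.04% of Zp3.

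The knockouts were examined in the same way. In knockout MII, Zp3 stood at 67.6, 77.9 and 69.4 FPKM and Zp2 at 129, 151 and 134 FPKM, after 329, 406 and 339.6 and 375, 422 and 364 FPKM in FGO. In this genotype Zp2 and Zp3 were the 2 genes of 9 that fell (all genes lower 2.65%), and a fit of these stages alone also called Zp1 (-0.41, limma adjusted p = 0.0304). The 3 zona genes had knockout differences in FGO of -0.19 ± 0.20 (SE), -0.36 ± 0.15 (SE) and -0.26 ± 0.18 (SE), and Zp2 had every knockout library below both controls, but none passed the test (limma adjusted p = 0.781, 0.195 and 0.542). From MII to L1C, 4 of 9 genes fell in the knockout (all genes 4.66%), Zp1, Zp2, Zp3 and Gdf9. In that genotype 7 of 9 fell from L1C to E2C (all genes 29.8%) and 5 of 9 from E2C to L2C (all genes 23.5%).

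The zona genes differed in what was called after fertilization. In E2C, Zp1 measured 4.12, 6.99 and 7.69 FPKM in controls and 10.5, 14.5 and 11.3 FPKM in knockouts. Every knockout library lay above every control, as for 14.6% of all genes, and Zp1 was higher by 0.87 ± 0.18 (SE) (limma adjusted p = 0.00115). Zp2 measured 41.4, 33.9 and 30.2 FPKM in controls and 49.97, 57.3 and 42.7 FPKM in knockouts, again without overlap, a difference of 0.50 ± 0.13 (SE) (limma adjusted p = 0.00663, 0.0772 in a fit of E2C alone). Zp3 overlapped between genotypes there, at 9.08, 7.44 and 9.90 and 13.0, 11.7 and 7.30 FPKM (limma adjusted p = 0.331), and was called higher, by 0.45, only without knockout replicate 3. In L2C Zp2 remained higher in the knockout, with 34.3, 34.6 and 40.9 FPKM against 24.9 and 25.1 FPKM, by 0.53 ± 0.15 (SE) (limma adjusted p = 0.00607). Zp1 overlapped again, at 10.3 and 7.41 FPKM in controls and 10.2, 12.3 and 9.78 FPKM in knockouts.

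Zp3 was the exception in L2C. It rose in controls from 9.08, 7.44 and 9.90 FPKM in E2C to 15.4 and 15.2 FPKM in L2C, by 0.74 ± 0.18 (SE) (limma adjusted p = 0.00126), the one call of a rise between consecutive control stages in the fit reported here. Bmp15 was also called higher from MII to L1C after median centring (0.44, limma adjusted p = 0.0426) or in a fit of those stages alone, and Zp1 from E2C to L2C under the stricter filter of 5 FPKM on average (0.46, limma adjusted p = 0.0485) and without control replicate 2 or 3 of E2C or control replicate 2 of L2C. Knockout L2C held 9.21, 9.84 and 13.4 FPKM, all below both controls, and the change from E2C was 0.04 ± 0.16 (SE) (limma adjusted p = 0.872). The genotype difference in L2C was -0.48 ± 0.18 (SE) (limma adjusted p = 0.0366), and it did not pass without control replicate 1 or 2 or knockout replicate 1 or 2, nor with TPM, where it was -0.37 (limma adjusted p = 0.141). It also did not pass with TPM without Gm23935 (0.0673), with no filter (0.0794), after quantile normalization (0.0538) or in a fit of L2C alone (0.0579).

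Gdf9 was the one gene of the 9 called by genotype in L1C in the fit of all stages, and a fit of L1C alone also called Figla. It measured 1096 and 1077 FPKM in control FGO and 986 and 904 FPKM in MII, a difference that did not pass (limma adjusted p = 1), and the knockouts stood at 1151, 1179 and 1069 FPKM and 929.5, 1039 and 949 FPKM, within or next to the control values. The Gdf9 promoter also drove iCre in the knockout oocytes, and the Gdf9 transcript was not called in FGO (limma log2 difference 0.06 ± 0.21 (SE), adjusted p = 1). In L1C controls it was down to 178 and 202 FPKM, a step of -2.31 ± 0.23 (SE), while the knockouts still held 586, 392 and 277 FPKM. All 3 knockout libraries exceeded both controls, but they spread widely, from 277 to 586 FPKM. The difference was 1.07 ± 0.21 (SE) (limma adjusted p = 0.00236) and, without control replicate 1, 0.98 (adjusted p = 0.0536). Of the oocyte level 17.5% was left in controls and 36.9% in knockouts.

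In E2C Gdf9 came closer together, at 79.6, 88.1 and 101 FPKM in controls and 117, 146 and 102 FPKM in knockouts. The groups did not overlap, but the difference of 0.43 ± 0.19 (SE) did not pass (limma adjusted p = 0.0983, 0.0335 with TPM and 0.0368 after centring on library medians). In L2C the controls measured 61.9 and 70.1 FPKM and the knockouts 126, 195 and 132 FPKM. Every knockout library stood well above both controls, by 1.16 ± 0.21 (SE) (limma adjusted p = 0.00018). The step from E2C to L2C was -0.43 ± 0.21 (SE) in controls and 0.30 ± 0.19 (SE) in knockouts. Neither was called, although the control step was with TPM, where it was -0.61 (limma adjusted p = 0.0172), after centring and in a fit of these stages alone.

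Bmp15 and Oosp1 were the persistent secreted factors. Bmp15 stayed between 360 and 459 FPKM in the control libraries of FGO, MII, L1C and E2C and then dropped to 120.0 and 121 FPKM in L2C, by -1.74 ± 0.12 (SE) from E2C (limma adjusted p = 1.16e-10). Knockout L2C held 220.4, 226 and 216 FPKM, close to each other and all above the controls. The excess was 0.87 ± 0.12 (SE) (limma adjusted p = 1.04e-05), and 59.4% of the oocyte level remained against 28.7% in controls. Before L2C no difference was called, with values from -0.18 in E2C to 0.15 in MII.

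Oosp1 kept the largest share of its transcript. Its control libraries ran from 306 to 547 FPKM until E2C and were at 239 and 209 FPKM in L2C, a change of -0.80 ± 0.17 (SE) from E2C (limma adjusted p = 0.000313; after quantile normalization -0.17, adjusted p = 0.323). In the knockout it stood at 331, 382 and 353 FPKM in L2C, above both controls, by 0.66 ± 0.17 (SE) (limma adjusted p = 0.0032; after quantile normalization 0.31, adjusted p = 0.0855). Oosp1 was the one tested gene not lower in knockout L2C than in knockout FGO (8 of 9 were, against 39.0% of all genes), at 94.4% of the oocyte level and a change of -0.08 ± 0.15 (SE), although with TPM it fell by 0.37 (limma adjusted p = 0.0240).

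Among the transcription factors, Figla, the E-box activator of zona genes, was the least abundant of those tested. Its control libraries measured 19.7 and 16.5 FPKM in FGO, 12.1 and 14.0 FPKM in MII, 7.59 and 4.45 FPKM in L1C and 1.55, 0.806 and 2.57 FPKM in E2C. The change from MII to L1C was -1.04 ± 0.29 (SE) (limma adjusted p = 0.0258), a call lost without either control library of MII or control replicate 2 of L1C. It was also lost with a pseudocount of 0.1, with no filter, with TPM without Gm23935 and after quantile normalization (-0.86, limma adjusted p = 0.0861). The knockout libraries were at 10.9, 11.4 and 9.99 FPKM in L1C and 5.77, 4.52 and 4.34 FPKM in E2C, above all controls in both stages. In E2C the difference was 1.20 ± 0.24 (SE) (limma adjusted p = 0.000767). In L1C it was 0.78 ± 0.27 (SE), which did not pass in the fit of all stages (limma adjusted p = 0.0866) and did in a fit of L1C alone (0.0349). By L2C both genotypes were near the lowest values, with 1.75 and 1.54 FPKM in controls and 1.89, 3.64 and 1.10 FPKM in knockouts, which overlapped.

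Nobox, a homeodomain factor of follicle growth, kept most of its transcript until after the 1-cell stage and then lost it in 2 steps. Control levels were 164 and 168 FPKM in FGO, 184 and 168 FPKM in MII and 134 and 131 FPKM in L1C. They were then 42.5, 46.3 and 40.6 FPKM in E2C and 9.04 and 7.23 FPKM in L2C, steps of -1.60 ± 0.11 (SE) and -2.28 ± 0.11 (SE) (limma adjusted p = 2.68e-10 and 3.08e-13). The smaller fall from MII to L1C, -0.40 ± 0.12 (SE), passed at an adjusted p of 0.0333 in limma and did not pass without any 1 of the control libraries of those 2 stages. Nor did it pass with no filter, with TPM, with TPM without Gm23935, with no intensity trend or after median centring (-0.23, limma adjusted p = 0.245). Knockout E2C held 48.2, 63.7 and 46.7 FPKM, all above the controls by a small margin. That difference of 0.28 ± 0.10 (SE) (limma adjusted p = 0.0399) was 0.14 without knockout replicate 2, and the call was lost there and without control replicate 1 or 3. It was also lost in a fit of E2C alone (limma adjusted p = 0.245), with no filter (0.0795), after quantile normalization (0.126) and with no intensity trend (0.0673).

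Of all genotype differences of the 9 genes, Nobox in L2C had the smallest adjusted p. Knockout libraries measured 19.7, 19.4 and 22.7 FPKM, all above both controls, and the difference was 1.25 ± 0.11 (SE) (limma adjusted p = 2.09e-08). Of the oocyte level, 4.91% was left in controls and 14.0% in knockouts. Lhx8, the LIM-homeodomain factor, showed no called change through L1C, with control libraries between 47.0 and 52.2 FPKM. It measured 44.0, 32.2 and 30.8 FPKM in control E2C, a change from L1C of -0.48 ± 0.17 (SE) (limma adjusted p = 0.027) that did not pass without any 1 of the control libraries of L1C or without control E2C replicate 2 or 3. This change also did not pass with no filter, after median centring (-0.33, limma adjusted p = 0.134) or after quantile normalization (-0.23, 0.28). In L2C controls stood at 10.8 and 11.5 FPKM and knockouts at 19.6, 16.4 and 23.2 FPKM, without overlap, and the excess was 0.76 ± 0.17 (SE) (limma adjusted p = 0.00122). Sohlh1 was listed at 0 in 18 of the 26 libraries. Its L2C values were 0.441 and 0.679 FPKM in controls and 0.261, 1.07 and 0.263 FPKM in knockouts.

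Whether a genotype difference itself changed between stages was tested directly. No gene of the 9 passed from FGO to MII, from MII to L1C or from L1C to E2C (limma, 0 called in each, with 0, 1 and 2 at an unadjusted p under 0.05), where 0%, 0% and 4.68% of all genes were called. The Gdf9 difference rose by 1.03 ± 0.30 (SE) from MII to L1C with an adjusted p of 1 in limma. From E2C to L2C 6 of 9 genes passed, 4 with a rise of the knockout excess (all genes 15.5%) and 2 with a fall (all genes 14.9%). Those that rose were Bmp15, Oosp1, Nobox and Lhx8, all called lower in controls in that step, Oosp1 not after quantile normalization. Zp2 was also called lower there in controls, but its knockout difference changed by 0.03 ± 0.20 (SE) (limma adjusted p = 0.933). Those that fell were Zp3 and Figla, which both lost the call without any 1 of 7 libraries. A fit of these 2 stages alone called Bmp15 and Nobox only, and without either control library of L2C 3 of the 9 were called. From FGO to L2C 5 of 9 passed, all upward (all genes 15.9%), namely Zp2, Gdf9, Bmp15, Oosp1 and Nobox. Gdf9 was not called there after quantile normalization (0.98, limma adjusted p = 0.064).

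The embryos' own stage markers also differed between the genotypes. The 7 markers of the 2-cell embryo summed to between 229 and 306 FPKM in control E2C and between 98.3 and 203 FPKM in knockout E2C. In L2C the order was the opposite, with 148 to 163 FPKM in controls and 365 to 467 FPKM in knockouts. The 9 oocyte markers summed to between 1678 and 1743 FPKM in control L1C and between 1772 and 2223 FPKM in knockout L1C, to between 627 and 720.3 FPKM and between 671 and 943 FPKM in E2C, and to between 227 and 234 FPKM and between 337 and 410.1 FPKM in L2C. In controls the oocyte sums fell from FGO to L2C, as all 9 tested genes did. The 2-cell sums of controls instead rose into E2C, from between 21.8 and 21.9 FPKM in L1C. The part of either list in the genotype differences was not tested. The sum of the 15 granulosa or cumulus markers was lower in knockouts, 16.5 to 18.2 FPKM against 26.3 to 28.0 FPKM in FGO and 26.1 to 39.3 FPKM against 55.8 to 58.1 FPKM in L2C. That sum rests on few genes, because Nr5a2 alone stood at 9.57 to 38.1 FPKM in every library and 9 of the 15 stayed below 1 FPKM. It does not by itself measure granulosa or cumulus cells. The part of these markers in the genotype differences was not tested.

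**Figure D3:**
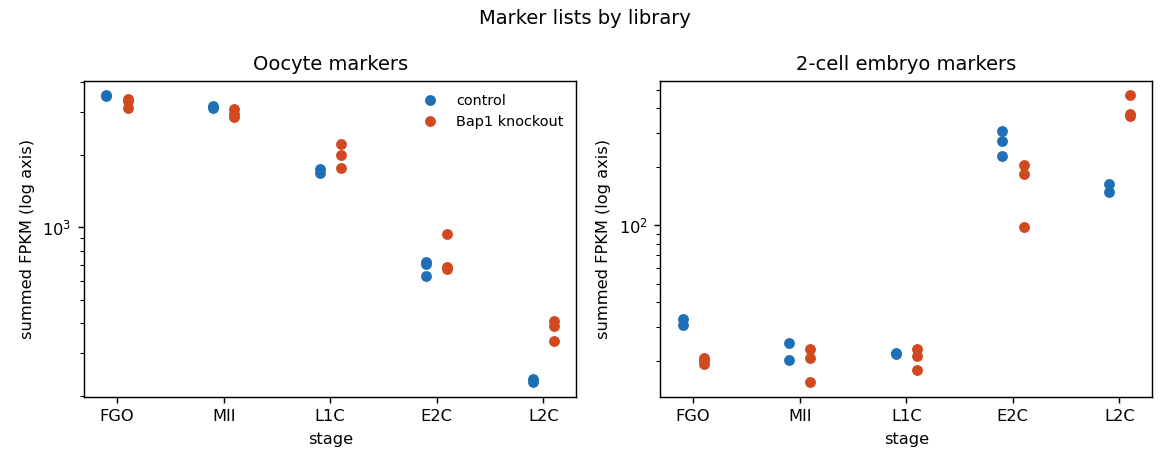
Summed FPKM of 9 oocyte markers (left) and 7 markers of the 2-cell embryo (right) in each library (vertical axes, log scale) by stage (horizontal axes), control in blue and Bap1 knockout in red. In L2C the knockout libraries lie above both controls in both lists, and in E2C they lie below the controls for the 2-cell markers.

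Genes around these pathways were taken from 4 lists that hold none of the 10 genes. For egg surface and zona processing genes, 8 of 9 were tested. The numbers higher and lower in the knockout were 0 and 0 in FGO (all genes 0.830% and 5.12%) and MII (1.28% and 4.62%) and 1 and 0 in L1C (2.23% and 5.51%). They were 2 and 0 in E2C (all genes 14.1% higher and 14.9% lower) and 5 and 1 in L2C (all genes 21.3% and 20.9%). Their median difference in L2C was 0.62, beside 0.03 over all genes. Furin, a proprotein convertase that can cleave secreted precursors, stood in E2C at 8.70 ± 0.299 FPKM (SD, n = 3) without and 17.6 ± 3.67 FPKM (SD, n = 3) with the deletion, a difference of 0.92 ± 0.13 (SE) (limma adjusted p = 2.20e-05), and was higher by 0.63 in L1C, a call lost without either control library. Astl, the ovastacin that cleaves ZP2 after fertilization, was higher by 0.78 ± 0.14 (SE) in E2C (limma adjusted p = 0.000321, 0.0605 in a fit of E2C alone). In L2C Oosp2, a paralogue of Oosp1, was higher by 1.11 ± 0.16 (SE) and Izumo1r, the egg receptor of sperm IZUMO1, by 0.97 ± 0.14 (SE). Cd9, the tetraspanin needed for sperm-egg fusion, was lower, at 8.51 ± 2.40 FPKM (SD, n = 3) against 16.4 ± 0.510 FPKM (SD, n = 2) in controls, a difference of -0.91 ± 0.17 (SE) (limma adjusted p = 0.000156).

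Of the genes of GDF9 and BMP15 signalling, 15 of 20 were tested. The numbers higher in the knockout were 0 in FGO (all genes 0.830%), 1 in MII (1.28%), 3 in L1C (2.23%), 8 in E2C (14.1%) and 6 in L2C (21.3%). Against 5.12%, 4.62%, 5.51%, 14.9% and 20.9% of all genes, 0 of the 15 were lower in these stages. Their median difference was 0.30 in L1C, 0.39 in E2C and 0.23 in L2C, beside 0.01, 0 and 0.03 over all genes. Fgf8, an oocyte growth factor that acts with BMP15 on cumulus cells, stood in L2C at 2.39 ± 0.946 FPKM (SD, n = 2) without and 11.5 ± 3.26 FPKM (SD, n = 3) with the deletion, a difference of 1.88 ± 0.19 (SE) (limma adjusted p = 1.07e-07), and was higher by 0.66 in E2C. The receptor Bmpr1b was higher by 0.76 ± 0.12 (SE) in E2C (limma adjusted p = 8.00e-05), with 46.8 ± 4.24 FPKM (SD, n = 3) against 27.4 ± 3.98 FPKM (SD, n = 3) in controls. The ligand Bmp6 and the receptor Acvr1b were higher by 0.39 and 0.52 in L1C. Both calls were lost without control replicate 1, and that of Acvr1b also without control replicate 2 or knockout replicate 1 or 2. The signal transducer Smad1 was higher by 0.63 ± 0.16 (SE) in L2C.

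Transcripts named in the field as targets of FIGLA, NOBOX or LHX8 gave 14 tested genes, of which 6 were higher and 1 lower in E2C (all genes 14.1% and 14.9%) and 10 higher and 0 lower in L2C (all genes 21.3% and 20.9%). Before that, 1 was lower and 0 higher in FGO (all genes 5.12% and 0.830%) and in MII (4.62% and 1.28%). In L1C 1 was higher and 1 lower (all genes 2.23% and 5.51%). The 1 lower gene of 14 in these stages is near the share of all genes. The list's median difference in L2C was 0.57, beside 0.03 over all genes. Nlrp4f, of the NLRP family of oocyte proteins, reached 379 ± 8.38 FPKM (SD, n = 3) in L2C of the knockout against 85.7 ± 5.77 FPKM (SD, n = 2) in controls, a difference of 2.13 ± 0.08 (SE) (limma adjusted p = 1.37e-13), and Nlrp14 was higher by 1.90 ± 0.21 (SE). In E2C Oas1d, of the oligoadenylate synthetase family, was higher by 0.95 ± 0.10 (SE) and Jag1, a Notch ligand, by 0.82 ± 0.11 (SE), and Jag1 was already higher by 0.63 in L1C. Oog3 was lower, with differences of -0.79 in FGO, -0.53 in MII (not called without control replicate 1), -0.79 in L1C and -0.59 in E2C. Of this list, Nlrp5, Padi6, Mos and Dazl are also among the oocyte markers above.

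Of the other oocyte transcription and chromatin factors 10 were tested. The numbers higher and lower were 0 and 1 in FGO (all genes 0.830% and 5.12%), MII (1.28% and 4.62%) and L1C (2.23% and 5.51%). They were 1 and 2 in E2C (all genes 14.1% and 14.9%) and 4 and 2 in L2C (all genes 21.3% and 20.9%). In E2C and, for the lower genes, in L2C these shares are near those of all genes. Npm2, the oocyte histone chaperone, was higher by 0.92 ± 0.13 (SE) in L2C, with 155 ± 20.3 FPKM (SD, n = 3) against 81.1 ± 7.15 FPKM (SD, n = 2) in controls (limma adjusted p = 6.05e-06), and by 0.36 in E2C, a call lost without control replicate 1 or 3 or knockout replicate 2. Pou5f1, the pluripotency factor, was higher by 0.50 ± 0.11 (SE) in L2C. Dppa3, which protects maternal DNA methylation, was lower, with a difference of -0.27 ± 0.07 (SE) in E2C (limma adjusted p = 0.00794, 0.143 with TPM and also in a fit of E2C alone, 0.0805 after centring), and Taf4b, a TFIID subunit of germ cells, with -0.38 ± 0.13 (SE) in L2C (adjusted p = 0.0188, 0.181 with TPM), a call also lost without either control library of L2C.

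**Figure D4:**
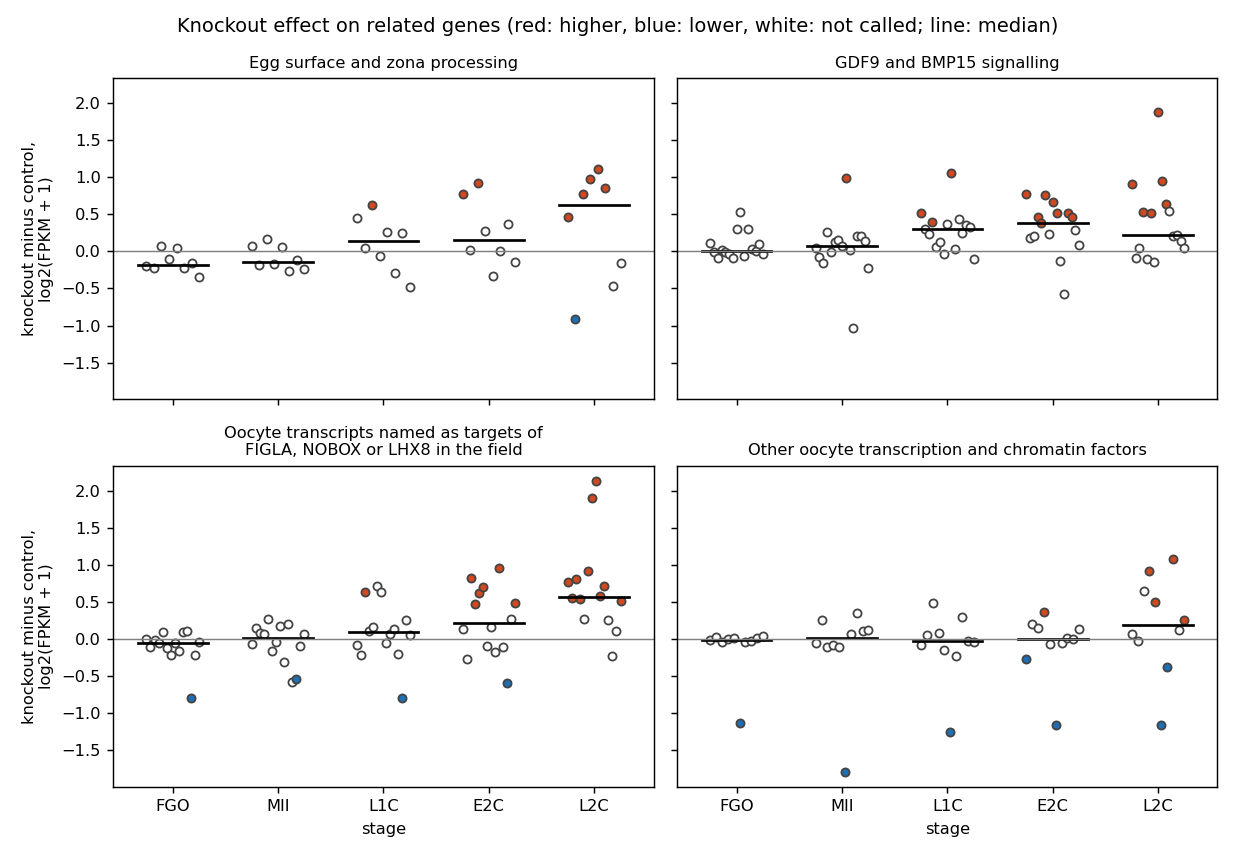
Knockout minus control difference on the log2(FPKM + 1) scale (vertical axes) by stage (horizontal axes) for each tested gene of the 4 lists, coloured where the limma adjusted p was under 0.05 (red higher, blue lower), with a line at the list's median. In L2C 10 of 14 named target transcripts and 5 of 8 egg surface genes are red.

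Across the 26 libraries, which share their stages, the courses of the genes fell close to each other for some pairs only. Pearson's r of log2(FPKM + 1), a description across libraries of 5 stages, was 0.97 for Zp2 with Zp3, 0.95 for Gdf9 with Zp1, 0.89 for Bmp15 with Lhx8 and 0.33 for Bmp15 with Zp1. Outside the group, the genes most like Zp3 were Uqcc2, Khdc3 and Disp1 (r from 0.97 to 0.98), and those most like Gdf9 were Mos, Slc23a2 and Slc7a11 (0.98 each). Figla was most like Slc45a4, Cntn2 and Clpb (each 0.96). Khdc3, a subunit of the oocyte cortical complex, went from 213 FPKM in control FGO to 49.9 FPKM in MII and 4.45 FPKM in L2C. Mos, the kinase that holds eggs in meiosis, went from 78.8 FPKM in control FGO to 51.3 FPKM in MII and 5.61 FPKM in L1C.

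At embryonic day 6.5, the genes were at or near 0 in both genotypes. Of 110 values (10 genes in 11 libraries), 53 were 0 and 6 reached 1 FPKM, the highest being Sohlh1 at 1.42 FPKM. Bmp15 and Oosp1 were listed at 0 in 10 of the 11 libraries. Zp3 and Gdf9 were listed above 0 in 10 of the 11 but did not exceed 1.19 and 1.05 FPKM. These poly(A) libraries stand in a table of their own and were not compared with the total RNA libraries.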

How the data were processed

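Total RNA-seq of 26 libraries from 5 stages, and poly(A) RNA-seq of 11 libraries of embryonic day 6.5, were deposited as 2 tables of FPKM per gene, per the file headers. The submitters' processing notes name Trim Galore 0.6.6, STAR 2.7.9, StringTie 2.1.7 and mm10. The SMART-Seq Stranded kit was used for total RNA, per the labels' protocols. In 1 deposited column (control epiblast, replicate 1), marked as another unit because it holds a single value just below 0, that value was set to 0. FPKM carry no read number, so depth is unknown, and a value is relative to the rest of its library.

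The 26 libraries were fitted together with limma 3.58.1 (R 4.3.3) on log2(FPKM + 1), with an intensity trend, for the 15184 genes of at least 1 FPKM in at least 2 libraries, with Benjamini-Hochberg adjustment over all of them within a contrast and a threshold of 0.05. The procedure was tested on simulated data, with the same spread of a gene at every stage and changes added in L1C only. Because E2C libraries varied more, that test does not bear on the calls in E2C. The 10 genes and the lists were chosen with earlier results of these data known. From each list and contrast, at most 2 called genes per direction were named, by size of change, if their higher group averaged 5 FPKM or more, and for Zp3, Gdf9 and Figla the 3 most correlated genes. Alternatives were another pseudocount (0.1), no filter or a mean of at least 5 FPKM, TPM with and without Gm23935, median centring, quantile normalization, no trend, each stage alone, a replicate block and leaving out each library. Marker lists were of oocyte, granulosa or cumulus cell, sperm and 2-cell embryo. The sperm markers summed to at most 6.71 FPKM. The day 6.5 libraries were only described.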

Additional observations from a re-analysis of the deposited data

Results flagged for a closer look

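The values here are changes of the knockout minus control difference between 2 stages, on the log2(FPKM + 1) scale, that passed the test of that change (limma, adjusted over 15184 genes). From E2C to L2C the difference rose for Bmp15 by 1.05 (adjusted p = 6.37e-05), Nobox by 0.97 (4.06e-05), Lhx8 by 0.78 (0.0142) and Oosp1 by 0.74 (0.0173). It changed by -0.71 for Zp3 (0.0318) and by -0.997 for Figla (0.0414). From FGO to L2C it rose for Nobox by 1.42 (1.42e-06), Gdf9 by 1.10 (0.0097), Bmp15 by 1.05 (0.000161), Oosp1 by 0.91 (0.00708) and Zp2 by 0.89 (0.00298). Of all genes, 15.5% rose and 14.9% fell in this way from E2C to L2C, and 15.9% rose from FGO to L2C. The Zp3 and Figla values from E2C to L2C lost their call without any 1 of 7 libraries each. In a fit of E2C and L2C alone, Oosp1 and Lhx8 also lost theirs (limma adjusted p = 0.0844 and 0.0732). After quantile normalization, Oosp1 from E2C to L2C (0.35, limma adjusted p = 0.172) and Gdf9 from FGO to L2C (0.98, 0.064) were not called. E2C and L2C knockouts also differed from controls in 2-cell markers, whose part was not tested.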

How the results depend on the processing

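No result changed sign among those called. Fitted by stage alone, the number of the 9 genes called was 2 in L1C (1 in the fit of all stages), 2 in E2C (4) and 2 for the change of the knockout difference from E2C to L2C (6), and the number of list genes called was 5 in MII (3) and 11 in E2C (20). List genes called in FGO numbered 1 (2 in the fit of all libraries) with a mean of at least 5 FPKM and after quantile normalization, and in MII 1 with a mean of at least 5 FPKM. Leaving out each library in turn gave 1 to 2 list genes in FGO, 0 to 1 of the 9 genes in L1C (0 without control replicate 1), 3 to 8 list genes in L1C (3 without control replicate 1) and 3 to 7 of the 9 genes for the change from E2C to L2C (3 without L2C control replicate 1 or 2). Over all genes, the higher and lower calls were 2146 and 2261 in E2C (2971 and 1870 with TPM, 2899 and 1744 after centring), 3238 and 3181 in L2C (3989 and 2293 with TPM), 126 and 777 in FGO (317 and 611 after centring) and 194 and 701 in MII (519 and 552 after centring). A fit of E2C alone called only 501 higher and 692 lower. The median within-group SD was 0.218 in control and 0.237 in knockout E2C, against 0.0784 to 0.123 in FGO, MII and L1C. The fit of all stages shares its estimate of spread across them. On the log2 scale TPM moved the median of all genes by 0.12 for the genotype difference in L2C and by -0.42 from FGO to L2C in controls, and centring moved it by 0.17 from MII to L1C in controls, where calls were 485 higher and 1173 lower (1454 and 831 after centring). From E2C to L2C centring moved it by -0.25 in controls, where calls were 5060 higher and 4211 lower (3991 and 5840 after centring). In knockouts the shift was -0.31, and Zp1 (-0.45, limma adjusted p = 0.0351) and Oosp1 (-0.37, 0.0332) were then also called lower. The cause was not tested. The deposited FPKM give no read number, so the limit that depth sets is unknown.

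With group means subtracted, same-numbered libraries correlated between -0.0767 and 0.142 in 11 pairs, 1 of them above 0.1. In control groups of 2 libraries the deviations are mirror images, so these pairs are not separate values. The check therefore cannot decide whether the numbers pair the libraries, and they were not taken to do so. With a replicate block, list genes called in FGO numbered 1. For the change from E2C to L2C, Gdf9 gained a call (0.81, limma adjusted p = 0.0472), and Oosp1 (0.74, 0.088), Figla (-0.73, 0.172) and Lhx8 (0.66, 0.127) lost theirs, as did Oosp1 from FGO to L2C (0.85, 0.0846).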
